A study of Homo sapiens with 17 samples.

Results

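The sirtuin family was examined in SF8628 cells treated with the BET bromodomain inhibitor AZD5153. Its 7 members, SIRT1 to SIRT7, were taken by gene symbol from the 60664 genes of the RNA-Seq table, and all 7 were found and passed the minimum mean of 10 normalized counts needed for testing. SF8628 is an established cell line of diffuse intrinsic pontine glioma, a diffuse midline glioma of childhood, with the lysine-to-methionine mutation of histone H3.3, and it was grown as a monolayer in medium with fetal bovine serum. Cells received the DMSO vehicle or 1 µM AZD5153 for 24 or 48 hours, which gave 4 groups of 3 RNA libraries. All 4 groups share the same line, medium and mutation, so the data describe 1 line at 1 dose. No label says whether the 3 libraries of a group came from separate cultures, so the p-values measure the spread between these libraries, which may be technical.

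Sirtuins are enzymes that remove acetyl and other acyl groups from lysines, or transfer ADP-ribose, and consume NAD+ in each reaction. SIRT1, SIRT6 and SIRT7 act mainly in the nucleus on histones and transcription factors, SIRT2 acts mainly in the cytosol, and SIRT3, SIRT4 and SIRT5 act in mitochondria. AZD5153 is a bivalent inhibitor that displaces BET proteins from acetylated chromatin.

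The libraries held 15759148 to 27335220 gene reads each (median 20737337), and a sirtuin gene had between 17 and 2556 reads in any library. Values are normalized counts, that is, reads divided by 1 size factor per library, and effects are log2 fold changes of normalized count + 1 tested with limma and adjusted by Benjamini-Hochberg over 15599 genes at 0.05. They are relative to the rest of each library: a smaller share of cells that use a gene and less of its RNA in every cell cannot be told apart. DMSO 24-hour replicate 1 stood apart from the others, with a root mean square distance of 0.351 (log2) from its group mean, against 0.202 to 0.274 in the other 11 libraries. Among 8 glial and glioma markers, VIM, encoding vimentin, averaged 15327 to 22869 normalized counts in the 4 groups, while OLIG2, which marks oligodendroglial precursors, was listed at 0 in all 12 libraries and PDGFRA averaged 1.54 to 4.42. The immune marker AIF1 and the endothelial marker CDH5 were also listed at 0 throughout. Other markers of the same lists were not: in DMSO at 24 hours CSF1R averaged 189 and PECAM1 289 normalized counts.

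AZD5153 was followed by higher mRNA of 5 of the 7 sirtuins and lower mRNA of 1 at each time. SIRT1, SIRT2, SIRT3, SIRT4 and SIRT7 rose at 24 and at 48 hours, SIRT5 fell at both, and SIRT6 did not pass the threshold at either. SIRT4 had the largest fold change, from 20.4 to 137 normalized counts at 24 hours. Of all 15599 genes tested, 33.9% were called higher and 34.6% lower at 24 hours, and 33.1% and 33.9% at 48 hours, so calls in both directions were common in these cells. The share of all tested genes whose treated and DMSO libraries did not overlap was not computed. Such separation is given below only as a description of each member. For the 7 sirtuins the median log2 fold change was 0.70 at the first time and 0.88 at the second, and for all tested genes it was 0.00037 and 0.0011. The values for all genes lie near 0 because the size factors centre the libraries on their median gene ratio. With libraries scaled to equal totals instead, SIRT1, the median member, was at 0.58 and 0.71.

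**Figure D1:**
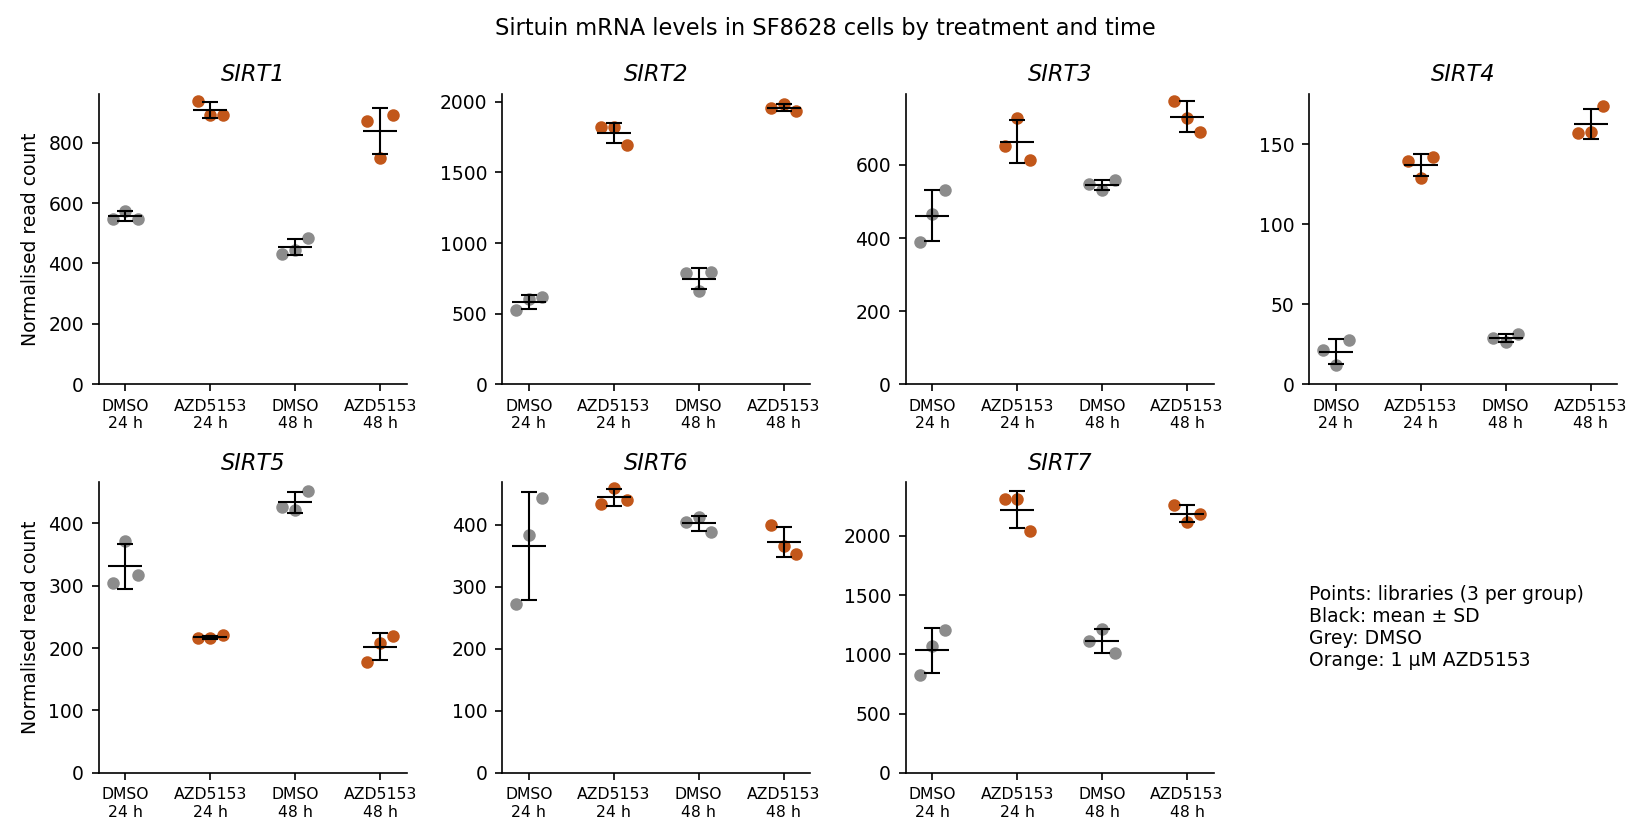
Normalized read count (vertical axis, from 0) of each sirtuin gene in every library, by treatment and time. Points are libraries, 3 per group, and black marks are the mean ± SD. The AZD5153 libraries lie above the DMSO libraries of the same time for SIRT1, SIRT2, SIRT3, SIRT4 and SIRT7, and below them for SIRT5, and the 2 groups overlap for SIRT6. The share of all tested genes that separate in this way was not computed.

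The starts of SIRT1 and SIRT4 are shown because both genes rose and their promoters are unlike: of the 4 members with an entry within 5 bases of the GENCODE start, SIRT1 has the most GC-rich window and SIRT4 the most GC-poor. Each line gives the 250 bases before the RefSeq start on GRCh38.p14, plus strand, 5′ to 3′, with the searched motifs in capitals. The SIRT1 window is chr10:67884406-67884655 and the SIRT4 window is chr12:120302071-120302320.
SIRT1: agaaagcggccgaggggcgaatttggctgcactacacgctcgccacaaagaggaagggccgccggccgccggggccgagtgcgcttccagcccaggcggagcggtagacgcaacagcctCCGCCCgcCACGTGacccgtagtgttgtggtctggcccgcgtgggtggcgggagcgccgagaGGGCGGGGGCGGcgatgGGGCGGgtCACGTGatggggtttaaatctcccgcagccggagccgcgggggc
SIRT4: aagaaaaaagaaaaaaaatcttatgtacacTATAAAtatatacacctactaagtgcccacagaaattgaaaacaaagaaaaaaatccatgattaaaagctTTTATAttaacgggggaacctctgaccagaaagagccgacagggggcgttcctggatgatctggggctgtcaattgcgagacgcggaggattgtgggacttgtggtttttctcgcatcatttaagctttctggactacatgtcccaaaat
The motifs searched on both strands were GGGCGG (GC box), CACGTG (E-box), TGACGTCA (cAMP response element), CCAAT and TATAAA, and no motif contains another. The SIRT1 window was 72% GC, with 32 CpG dinucleotides, 4 matches to GGGCGG, of which 3 lie close together, and 2 to CACGTG. The SIRT4 window was 39.6% GC, with 7 CpG and 2 matches to TATAAA, 1 on each strand. Over all 35116 promoter windows of the RefSeq table the median was 58% GC and 11 CpG, and 42.6% held GGGCGG, 6.34% CACGTG, 1.65% TGACGTCA, 32% CCAAT and 10.7% TATAAA. A second SIRT4 entry, 10127 bases from the GENCODE start, had 1 match to TGACGTCA. Entries were found for 6 members, SIRT1 to SIRT6. The SIRT3 window held none of the 5 motifs. The SIRT2 window, 244 bases from the GENCODE start, held 1 CCAAT, so SIRT1, SIRT2, SIRT3 and SIRT4 had no searched motif in common. GGGCGG was also found in the windows of SIRT5 (2 and 1 matches) and SIRT6 (4 and 1 matches), and 1 SIRT6 window held 1 CCAAT. A match here is a run of letters and was not tested as a site.

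SIRT1 is the nuclear deacetylase of p53, FOXO factors and histones, and the gene lies on chr10:67884656-67918390 (plus strand, GRCh38). SIRT1 was read at 547, 575 and 547 normalized counts in the DMSO 24-hour libraries and at 937, 893 and 892 with AZD5153. At 48 hours its levels were 432, 445 and 486 in DMSO and 872, 750 and 892 with AZD5153. Every treated library was above every DMSO library of its time. The rise was 1.63-fold at 24 hours (log2 0.70, SE 0.08, limma adjusted p of 8.9e-07) and 1.84-fold at 48 hours (log2 0.88, SE 0.08, limma adjusted p of 6.7e-08).

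SIRT7 is a nucleolar deacetylase that acts on histone H3 and on ribosomal RNA transcription, and its gene lies on chr17:81911939-81921323 (minus strand). It gave 828, 1073 and 1201 normalized counts in DMSO and 2313, 2308 and 2039 with AZD5153 at 24 hours. After 48 hours SIRT7 was at 1108, 1213 and 1012 in DMSO and at 2258, 2113 and 2187 with AZD5153. The groups of each time did not overlap, and SIRT7 roughly doubled: by 2.17-fold at 24 hours (log2 1.12, SE 0.11, limma adjusted p of 1.5e-07) and by 1.97-fold at 48 hours (log2 0.98, SE 0.11, limma adjusted p of 6.5e-07). The lowest value was that of DMSO replicate 1 at 24 hours, and without that library the 24-hour log2 fold change was 0.96. SIRT7 shares 105 exonic bases, 1.71% of its exons, with MAFG on the same strand. MAFG, which encodes a small MAF transcription factor, rose by 0.23 (log2) at 24 hours (limma adjusted p of 0.0046) and fell by 0.38 at 48 hours (limma adjusted p of 8.4e-05), while SIRT7 rose at both.

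SIRT6 is a chromatin-bound deacetylase with roles in telomere upkeep and DNA repair, on chr19:4174109-4182566 (minus strand). Its DMSO libraries at 24 hours spread from 272 through 384 to 443 normalized counts, and its AZD5153 libraries were at 433, 460 and 441. At 48 hours SIRT6 was at 405, 413 and 389 in DMSO and at 399, 365 and 353 with AZD5153. The groups overlapped at both times. SIRT6 was the member that limma did not call at either time, with a log2 fold change of 0.31 (95% confidence interval 0.02 to 0.59, adjusted p of 0.051) at 24 hours and of -0.11 (-0.40 to 0.17, adjusted p of 0.47) at 48 hours. The 24-hour value turned on single DMSO libraries: it was 0.11 (limma adjusted p of 0.32) without DMSO replicate 1, and 0.46 (limma adjusted p of 0.0034, a call) without DMSO replicate 3. Quantile normalization also gave a call at 24 hours, with a log2 fold change of 0.43 and a limma adjusted p of 0.0059.

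SIRT2, a mainly cytosolic deacetylase of alpha-tubulin and metabolic enzymes, lies on chr19:38878555-38899862 (minus strand). SIRT2 was at 526, 604 and 621 normalized counts in DMSO and at 1822, 1820 and 1695 with AZD5153 at 24 hours. Its 48-hour levels were 786, 663 and 797 in DMSO and 1956, 1986 and 1936 with AZD5153. The lowest treated library held 1695 normalized counts and the highest DMSO library 797. SIRT2 rose 3.05-fold at 24 hours (log2 1.61, SE 0.08, limma adjusted p of 5.4e-11) and 2.62-fold at 48 hours (log2 1.39, SE 0.08, limma adjusted p of 3e-10). At 24 and 48 hours, 4.33% and 4.38% of the tested genes had a higher log2 fold change.

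SIRT3 is the main deacetylase of the mitochondrial matrix, on chr11:215030-236931 (minus strand). SIRT3 read 389, 466 and 530 normalized counts in DMSO and 652, 727 and 613 with AZD5153 at 24 hours. For 48 hours the values were 547, 532 and 558 in DMSO and 776, 729 and 690 with AZD5153. Treated libraries lay above DMSO libraries at both times, with the smallest rise of the 5 genes: 1.45-fold at 24 hours (log2 0.53, SE 0.10, limma adjusted p of 0.00025) and 1.34-fold at 48 hours (log2 0.42, SE 0.10, limma adjusted p of 0.0017). With libraries scaled to equal totals the 48-hour log2 fold change was 0.25 (limma adjusted p of 0.038). Without DMSO replicate 1 of 24 hours, the library that stood apart, the 24-hour log2 fold change was 0.41.

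SIRT4 is a mitochondrial ADP-ribosyltransferase and lipoamidase that restrains glutamate dehydrogenase and pyruvate dehydrogenase, on chr12:120302316-120313249 (plus strand). SIRT4 had the lowest counts of the family in DMSO, where the 24-hour libraries held 21, 12 and 28 normalized counts and the 48-hour libraries 29, 27 and 31. AZD5153 libraries held 139, 129 and 142 after 24 hours, then 157, 158 and 174 after 48. The highest DMSO library, at 31, was far below the lowest treated one, at 129. The rise was 6.77-fold at 24 hours (95% confidence interval 4.76 to 9.64, log2 2.76, limma adjusted p of 4.4e-08) and 5.48-fold at 48 hours (3.85 to 7.80, log2 2.45, limma adjusted p of 1.8e-07). Fewer than 1 in 100 tested genes rose more, 0.962% at 24 hours and 0.968% at 48 hours. The low DMSO counts make this size depend on the constant added before the logarithm. The size also moved when single libraries were left out, and over the alternatives the 24-hour log2 fold change ranged from 2.31 to 3.01.

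SIRT5 is the mitochondrial enzyme that removes succinyl, malonyl and glutaryl groups, on chr6:13574227-13615158 (plus strand). SIRT5 was at 304, 372 and 316 normalized counts in DMSO and at 216, 216 and 220 with AZD5153 at 24 hours. At 48 hours it was at 426, 422 and 452 in DMSO and at 178, 209 and 220 with AZD5153. It was the only member whose treated libraries all lay below the DMSO libraries. The fall was to 0.661 of the DMSO level at 24 hours (log2 -0.60, SE 0.11, limma adjusted p of 0.00013) and to 0.466 at 48 hours (log2 -1.10, SE 0.11, limma adjusted p of 1.6e-07). The 3 mitochondrial sirtuins thus differed in direction, with SIRT3 and SIRT4 higher and SIRT5 lower. An antisense long non-coding RNA gene shares 1058 exonic bases, 9.37% of the exons of SIRT5, and is listed at 0 in every library.

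**Figure D2:**
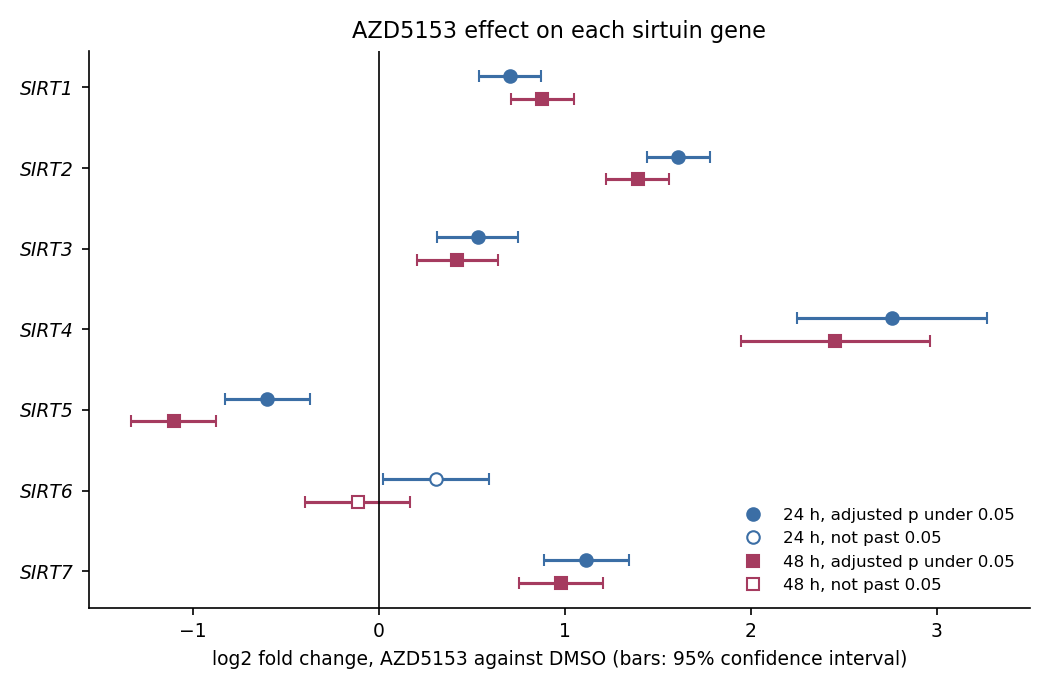
Log2 fold change of AZD5153 against DMSO (horizontal axis) for each sirtuin gene at 24 hours (circles) and 48 hours (squares), with 95% confidence intervals from limma and filled symbols where the adjusted p was under 0.05. SIRT4 lies highest at 2.76 and 2.45, SIRT5 is below 0 at both times, and SIRT6 is open at both.

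Over the mean of both times, 5 members were called higher and 1 lower, where 37.7% and 38% of all tested genes were called higher and lower. Averaged over the times, treated levels were 6.09 times the DMSO level for SIRT4, 2.83 times for SIRT2, 2.07 times for SIRT7, 1.73 times for SIRT1, 1.39 times for SIRT3, 1.07 times for SIRT6 and 0.555 times for SIRT5. The edgeR and DESeq2 tests on reads recovered from the values also called 5 members higher and 1 lower at each time. When each of the 12 libraries was left out in turn, SIRT1, SIRT2, SIRT3, SIRT4, SIRT5 and SIRT7 were called in all 12 fits at 24 hours and in all 12 at 48 hours. With all libraries, limma called 10679 of the 15599 tested genes at 24 hours and 10453 at 48 hours. The share of all genes called in every such fit was not computed.

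The next comparison asked whether the AZD5153 effect differed between the times. It uses the same 12 libraries as the effects above. SIRT5 was the 1 member with a called difference, its effect being lower at 48 than at 24 hours by 0.50 on the log2 scale (SE 0.15, limma adjusted p of 0.024). No member had a called increase of the effect, none passed an unadjusted p of 0.05 in that direction, and edgeR and DESeq2 called 0. Among all tested genes 14.4% had a called increase and 10.1% a called decrease. In its levels, SIRT5 averaged 331 ± 35.8 (SD, n = 3) at 24 hours and 433 ± 16.5 at 48 hours in DMSO, and 217 ± 2.52 and 202 ± 21.8 with AZD5153, so the DMSO level moved more between the times than the treated one. The SIRT5 call was made by edgeR (adjusted p of 0.019) and DESeq2 (adjusted p of 0.020), and was lost without DMSO 48-hour replicate 3 (-0.47, limma adjusted p of 0.059), without AZD5153 48-hour replicate 1 (-0.42, limma adjusted p of 0.062) and with scaling to 7 stably expressed genes (-0.43, limma adjusted p of 0.058). SIRT6 had a difference of -0.42 (95% confidence interval -0.82 to -0.02, limma adjusted p of 0.12). It was called without DMSO 24-hour replicate 3, at -0.57 (limma adjusted p of 0.016), and was -0.22 (limma adjusted p of 0.21) without DMSO 24-hour replicate 1. For the remaining 5 members the differences were between -0.31 for SIRT4 and 0.17 for SIRT1, with adjusted p from 0.18 to 0.62, and the widest interval, that of SIRT4, ran from -1.03 to 0.41.

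**Figure D3:**
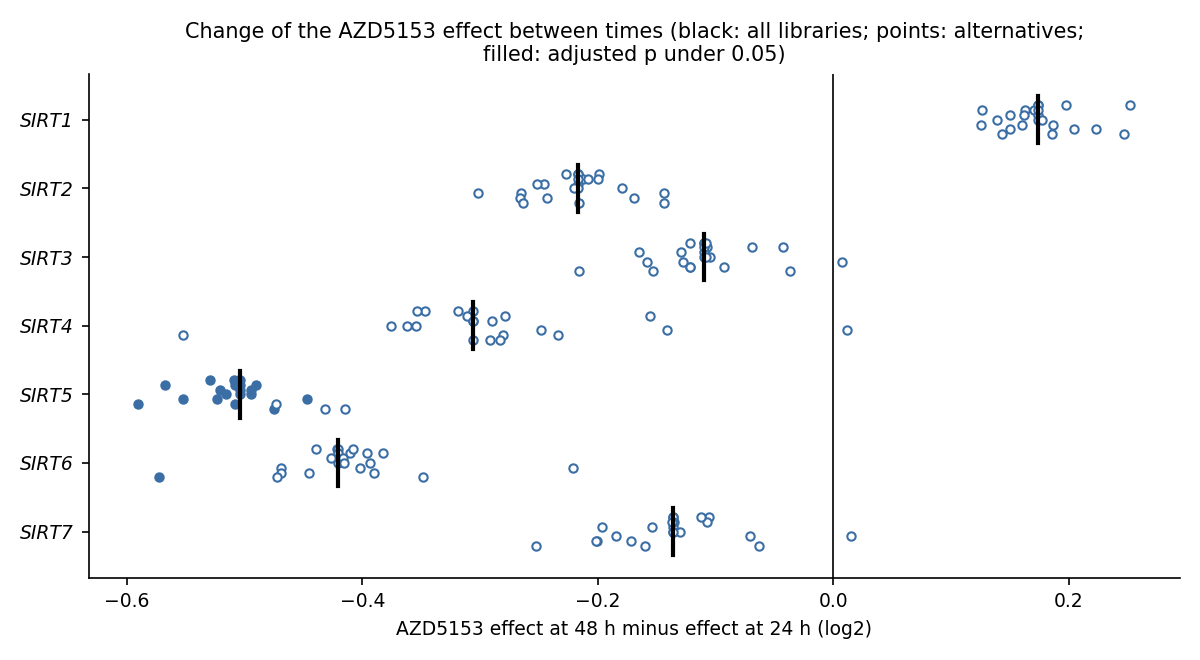
AZD5153 effect at 48 hours minus effect at 24 hours (log2, horizontal axis) for each sirtuin gene, as fitted on all libraries (black line) and under each alternative (points, filled where the adjusted p was under 0.05). SIRT5 points lie between -0.59 and -0.42, with 20 of 23 filled, and SIRT6 has 1 filled point at -0.57.

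Culture time alone was followed in DMSO, where 48-hour libraries were set against 24-hour libraries. SIRT2 (log2 0.36, SE 0.08, limma adjusted p of 0.0025) and SIRT5 (0.39, SE 0.11, limma adjusted p of 0.009) were higher at 48 hours, and SIRT1 fell by 0.29 (SE 0.08, limma adjusted p of 0.0087). For all tested genes the shares were 16.4% higher and 19.3% lower. This comparison shares the DMSO libraries with the AZD5153 comparisons. SIRT3 had a value of 0.25 (limma adjusted p of 0.066) and SIRT4 of 0.55 (limma adjusted p of 0.084), and both were called without DMSO 24-hour replicate 3, at 0.36 (limma adjusted p of 0.0079) and 0.80 (limma adjusted p of 0.012). SIRT3 was at 0.13 (limma adjusted p of 0.25) without DMSO 24-hour replicate 1, and SIRT4 at 0.24 (limma adjusted p of 0.38) without DMSO 24-hour replicate 2. SIRT6 and SIRT7 were at 0.16 and 0.12 (limma adjusted p of 0.36 and 0.43), and without DMSO 24-hour replicate 1 both were at -0.035.

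Between 24 and 48 hours of AZD5153, limma called 0 members higher and 0 lower, 0 passed an unadjusted p of 0.05, and edgeR and DESeq2 called 0. Of all tested genes, 15.8% were higher and 13.8% lower at 48 hours in treated cells. The member values lay between -0.26 for SIRT6 and 0.25 for SIRT4, with 95% confidence intervals that reached from -0.54 to 0.76. SIRT6 was called lower, at -0.26 (limma adjusted p of 0.019), when DMSO 24-hour replicate 1 was left out, a library that enters this comparison through the shared estimate of the spread.

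Levels were compared between the genes as normalized counts per kilobase of annotated exon. In DMSO at 24 hours SIRT7 stood first at 169 ± 30.9 per kilobase (SD, n = 3), then SIRT6 at 133 ± 31.7, SIRT1 at 122 ± 3.55, SIRT2 at 94.1 ± 8.16, SIRT3 at 83.1 ± 12.8, SIRT5 at 29.3 ± 3.17 and SIRT4 at 16.7 ± 6.40. The libraries of SIRT6 overlapped those of SIRT7, SIRT1 and SIRT2, and those of SIRT2 and SIRT3 overlapped. With AZD5153 at 24 hours the order was SIRT7 at 362 ± 25.5, SIRT2 at 287 ± 11.7, SIRT1 at 199 ± 5.65, SIRT6 at 162 ± 5.00, SIRT3 at 120 ± 10.4, SIRT4 at 112 ± 5.63 and SIRT5 at 19.2 ± 0.223, with overlap only of SIRT3 and SIRT4. SIRT2 therefore moved up to the second place, and SIRT4 and SIRT5 exchanged the last. At 48 hours the DMSO order was SIRT7 at 181 ± 16.4, SIRT6 at 146 ± 4.54, SIRT2 at 121 ± 12.0, SIRT1 at 99.6 ± 6.13, SIRT3 at 98.3 ± 2.38, SIRT5 at 38.4 ± 1.46 and SIRT4 at 23.7 ± 1.93, with overlap of SIRT1 and SIRT3. The treated 48-hour order was SIRT7 at 356 ± 11.8, SIRT2 at 316 ± 4.05, SIRT1 at 184 ± 16.9, SIRT6 at 135 ± 8.82, SIRT4 at 133 ± 7.80, SIRT3 at 132 ± 7.71 and SIRT5 at 17.9 ± 1.93, and SIRT6, SIRT4 and SIRT3 overlapped. The order depends on the length used. With the longest transcript in place of all exons SIRT3 lay above SIRT1 in DMSO at 24 hours (160 against 135 per kilobase) and with AZD5153 (230 against 221), while SIRT2 was again second and SIRT5 last with AZD5153.

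Summed over the 7 genes, the 24-hour level was 647 ± 86.5 per kilobase in DMSO and 1260 ± 45.4 with AZD5153, and the 48-hour level 708 ± 1.12 and 1274 ± 31.7. Of this sum, SIRT2 made up 14.6% ± 0.747 in DMSO and 22.8% ± 0.123 with AZD5153 at 24 hours, and after 48 hours 17.0% ± 1.68 and 24.8% ± 0.878. The nuclear members together made up 65.4% ± 1.26 of the DMSO sum and 57.3% ± 0.316 of the AZD5153 sum at 24 hours, and 58.4% to 63.0% and 51.7% to 54.0% in single libraries at 48 hours, though SIRT1 and SIRT7 rose in level. The mitochondrial share stayed between 19.1% and 23.5% in all 12 libraries, and within it SIRT4 went from 2.60% ± 0.958 to 8.90% ± 0.713 and SIRT5 from 4.57% ± 0.600 to 1.53% ± 0.0743 of the sum at 24 hours. Shares are descriptions with no test.

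**Figure D4:**
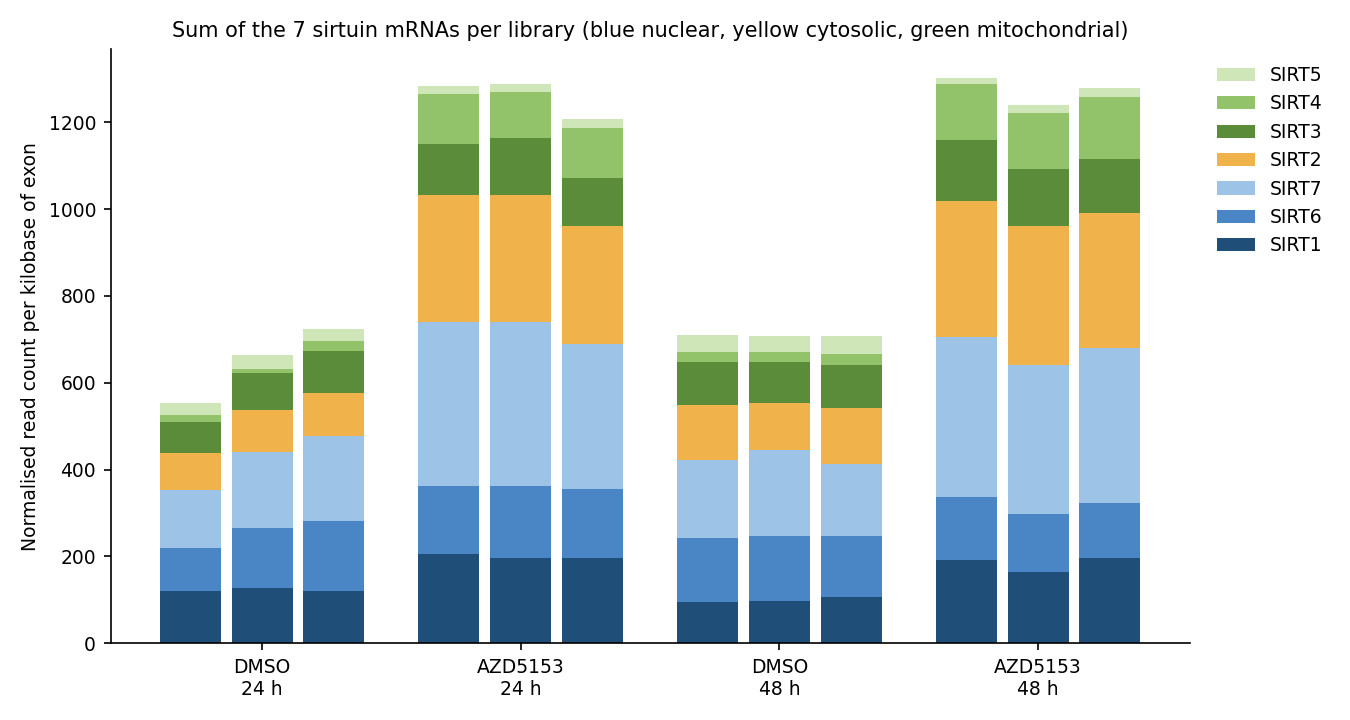
Normalized read count per kilobase of exon (vertical axis, from 0) of the 7 sirtuin genes stacked in each of the 12 libraries, with nuclear members in blue, SIRT2 in yellow and mitochondrial members in green. Treated bars reach 1208 to 1303 and DMSO bars 553 to 723, and the SIRT1, SIRT2, SIRT3, SIRT4 and SIRT7 sections are larger with AZD5153 while the SIRT5 section is smaller.

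Some neighbours could share reads or a promoter region with a member, and the strand setting of the counting is not given in the sources used here. NFKBIB starts 162 bases from SIRT2 on the opposite strand and shares 40 exonic bases with it, and its log2 fold changes were -0.12 (limma adjusted p of 0.51) at 24 hours and -0.21 (limma adjusted p of 0.26) at 48 hours, where SIRT2 rose. PSMD13, a proteasome subunit gene that starts 35 bases from SIRT3, was at -0.00018 (limma adjusted p of 1.00) and 0.16 (limma adjusted p of 0.014), against 0.53 and 0.42 for SIRT3. RIC8A, which shares 84 exonic bases with SIRT3 on the opposite strand, was at -0.08 (limma adjusted p of 0.31) and 0.05 (limma adjusted p of 0.56). ANKRD24, which starts 123 bases from SIRT6, rose by 2.17 (limma adjusted p of 0.00061) and 1.21 (limma adjusted p of 0.030) with a mean of 68.2 normalized counts over all 12 libraries, where SIRT6 was not called.

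The genes most like each member were found by the root mean square difference of log2 profiles, centred on their own mean, over the 12 libraries, among genes with a symbol whose mean reached 100 normalized counts. STRAP was closest to SIRT1 (0.063), followed by DYNLL2 and YKT6. For SIRT2 they were NOP14-AS1 (0.067), MKNK1 and DUSP1, and for SIRT3 COX5B (0.061), WDR6 and CUEDC1. SIRT4 had no gene as near, with DNM3 at 0.247, then ELAPOR2 and ABCA3. The mean of SIRT4, 87.2 normalized counts, lay below the 100 asked of the compared genes. Counting noise at its low DMSO levels was not separated from this distance. SIRT5 was nearest to PROS1 (0.10), DENND2B and FMNL3, SIRT6 to NOP10 (0.058), NR1H2 and CHCHD2, and SIRT7 to NCDN (0.059), HLA-C and ATP6V0B. The 12 libraries fall in 4 groups, and how far the likeness rests on the group means was not measured. It is given as a description.

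Genes around the sirtuins were grouped by role and counted over both times, against the 37.7% called higher and 38% called lower among all tested genes. Of 12 tested genes of NAD+ synthesis, which supplies the cosubstrate, 3 were called higher and 6 lower (median log2 fold change -0.07). Higher were AFMID, a kynurenine formamidase (618 ± 26.1 to 1089 ± 93.9 normalized counts at 24 hours, log2 0.90 over both times, limma adjusted p of 4.5e-10), and NADSYN1, the NAD+ synthetase (628 ± 22.3 to 1161 ± 46.7, log2 0.88, limma adjusted p of 7.9e-10). The largest decreases were those of KYNU and KMO, enzymes of the kynurenine route to NAD+. KYNU averaged 52.9 ± 2.22 in DMSO and 1.71 ± 1.49 with AZD5153 at 24 hours, and 52.6 ± 3.69 and 0.570 ± 0.988 at 48 hours. KMO averaged 18.7 ± 3.07 and 0.341 ± 0.591, and then 25.2 ± 9.23 and 3.38 ± 4.18. Both were too low with AZD5153 for a fold change that would not depend on the added constant. NAMPT, the rate-limiting enzyme of the salvage route from nicotinamide, fell by 0.17 (limma adjusted p of 0.00077); it was picked for this role and not by the size of its change.

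Of 13 other tested genes that use NAD+ or nicotinamide, 6 were called higher and 7 lower (median -0.87). NNMT, which methylates the nicotinamide that sirtuins release, averaged 230 ± 22.2 normalized counts in DMSO and 29.3 ± 8.44 with AZD5153 at 24 hours, and after 48 hours 501 ± 23.9 and 26.7 ± 4.33 (log2 -3.58 over both times, limma adjusted p of 1.6e-12). BST1, an ectoenzyme that cleaves NAD+, was also lower, at a log2 fold change of -1.04 at 24 hours (limma adjusted p of 0.023) and from 51.5 ± 9.45 to 6.79 ± 4.20 normalized counts at 48 hours (-2.89, limma adjusted p of 5e-06), where the low treated level makes the size depend on the added constant. The BST1 effect differed between the times (-1.85, limma adjusted p of 0.020). NADK, the cytosolic NAD+ kinase (0.82, limma adjusted p of 1.7e-09), and SARM1, an NAD+ hydrolase (0.80, limma adjusted p of 3e-05), were higher.

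Among 8 regulators of sirtuins, 3 were called higher and 4 lower (median -0.27). SENP1, a SUMO protease that acts on SIRT1 and SIRT3, went from 1252 ± 116 to 331 ± 31.1 at 24 hours (log2 -1.92, against -1.29 at 48 hours and -1.61 over both times, limma adjusted p of 2.5e-12), and E2F1, a transcription factor that binds the SIRT1 promoter, was lower, at -0.91 at 24 hours and -0.38 at 48 hours (-0.65 over both times, limma adjusted p of 1.1e-06), and the effect differed between the times (0.53, limma adjusted p of 0.020). USP22, a deubiquitinase that stabilizes SIRT1 (0.23, limma adjusted p of 3.6e-06), and CTBP1, a corepressor at the SIRT1 promoter (0.15, limma adjusted p of 0.012, not called at 24 hours), were slightly higher. HIC1, the repressor that recruits CTBP1 there, was at -0.36 (limma adjusted p of 0.26).

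Nuclear and cytosolic substrates were called in both directions, 6 higher and 7 lower of 16 (median -0.03), with 7 higher and 7 lower at 24 hours and 3 higher and 8 lower at 48 hours, where 33.9% and 34.6% of all tested genes at 24 hours and 33.1% and 33.9% at 48 hours were called higher and lower. FOXO1, a transcription factor that SIRT1 deacetylates, was higher over both times (0.85, limma adjusted p of 0.00049), at 1.33 at 24 hours (limma adjusted p of 0.00024) and 0.36 at 48 hours (limma adjusted p of 0.22, not a call). The histone methyltransferase SUV39H1 (-2.05, limma adjusted p of 1.1e-09) and BUB1B, the spindle checkpoint kinase that SIRT2 deacetylates (-2.29 at 24 hours, -1.33 at 48 hours and -1.81 over both times, limma adjusted p of 1.9e-14), were lower. Of 13 mitochondrial substrates, 3 were called higher and 6 lower (median -0.05). MLYCD, the malonyl-CoA decarboxylase that SIRT4 acts on, was higher (0.64, limma adjusted p of 3.5e-05), as was SDHA of complex II (0.93, limma adjusted p of 0.00088), which has near-identical pseudogenes, so its low count of 37.5 ± 16.6 in DMSO at 24 hours is uncertain. CPS1, a SIRT5 substrate of the urea cycle, was lower (-0.85, limma adjusted p of 2.9e-09), and ACSS1, the mitochondrial acetyl-CoA synthetase that SIRT3 activates, went from 49.7 ± 12.5 to 5.21 ± 6.10 at 24 hours. SOD2 was not matched by identifier.

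**Figure D5:**
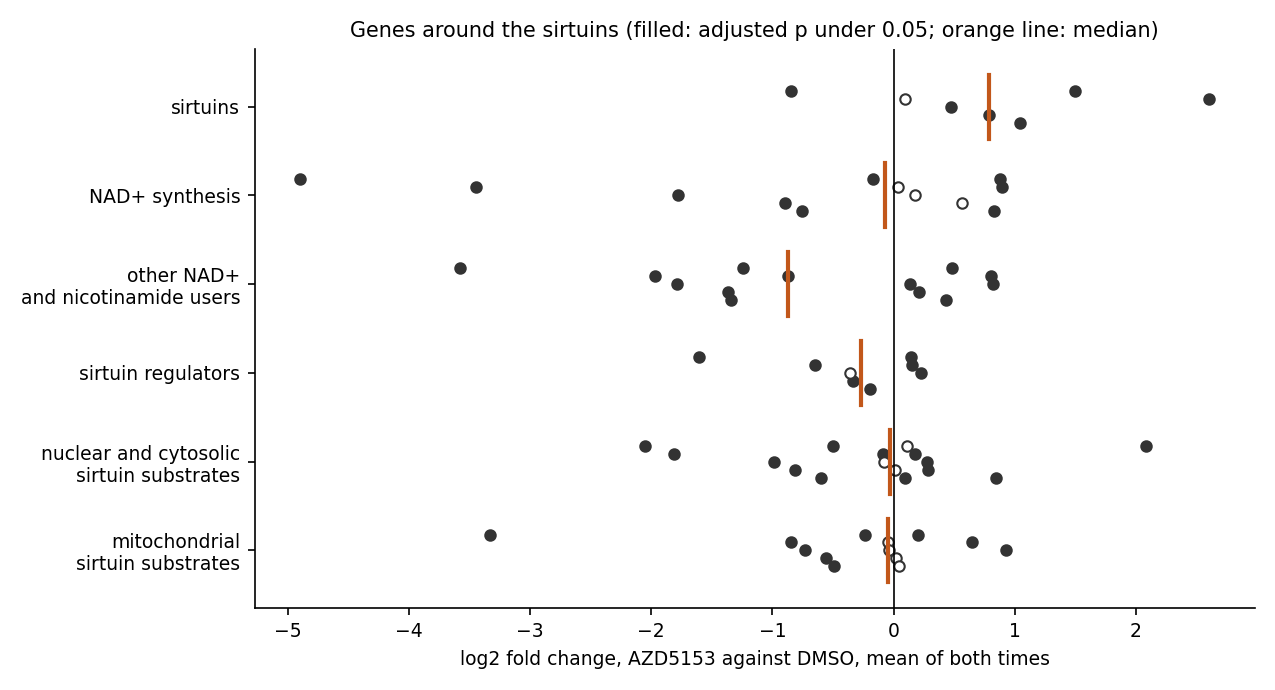
Log2 fold change of AZD5153 against DMSO over both times (horizontal axis) for each tested gene of 6 lists, with filled points where the limma adjusted p was under 0.05 and an orange line at the list's median. The median is 0.79 for the sirtuins and between -0.87 and -0.03 for the other lists, each of which has called genes on both sides of 0. The 2 lowest points of NAD+ synthesis are KYNU and KMO, whose fitted values depend on the added constant.

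Some markers of other cell types were called as well, 1 of 2 tested immune, 2 of 2 tested endothelial and 1 of 2 tested neuron markers over both times. Beside these and the glial calls below, 37.7% of all tested genes were called higher and 38% lower over both times. The summed level of 5 immune markers was 183 to 228 normalized counts in DMSO and 42.8 to 53.6 with AZD5153 at 24 hours, and 194 to 226 and 34.6 to 57.6 at 48 hours, which was mostly CSF1R, called lower (-2.61, limma adjusted p of 1e-10), with PTPRC at means of 0.362 to 2.47. The sum of 3 endothelial markers was 282 to 323 and 53.9 to 75.1 at 24 hours, and 515 to 572 and 40.2 to 44.5 at 48 hours, mostly PECAM1 (-3.39, limma adjusted p of 5.2e-14), while KDR was called higher (0.89, limma adjusted p of 0.019, not called at 48 hours). The 3 neuron markers summed to between 701 and 922 in all groups, mostly SYT1, with SNAP25 called lower (-1.40, limma adjusted p of 1.9e-05). Of the 8 glial markers 5 were tested and 3 called over both times: NES, encoding nestin (-1.65, limma adjusted p of 2e-14), and SOX2 (-0.45, limma adjusted p of 0.00024) were lower and CD44 (0.35, limma adjusted p of 3.9e-08) higher, and the sum of all 8 was 28311 to 37575 and 26255 to 28242 at 24 hours and 22086 to 22365 and 22000 to 23572 at 48 hours in DMSO and AZD5153. Their part in the sirtuin changes was not tested.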

How the data were processed

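RNA was measured in 12 libraries, 3 for each treatment and time, grouped by the labels. Per the labels and the study's methods, reads were aligned to hg38 with STAR, counted on genes with HTSeq and normalized with DESeq2. Versions, annotation and strand setting are not given in the sources used here. The deposited values are a signal, gene counts that the authors divided by 1 size factor per library. In every library 100% of values were whole reads within 0.1 read, so reads were recovered. The authors' own fold changes and p-values and the CUT&RUN samples were not used here.

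Testing took genes whose mean reached 10 normalized counts and used limma 3.58.1 (R 4.3.3) on log2(normalized count + 1), all 4 groups in 1 fit without a replicate block, eBayes with a trend (8 residual and 7.32 prior degrees of freedom), two-sided, with Benjamini-Hochberg adjustment over 15599 genes. The edgeR 4.0.16 quasi-likelihood test and DESeq2 1.42.0 were run on recovered reads as alternatives, with other scalings, filters and pseudocounts and each library left out, 24 settings in all. Over both times edgeR called 11842 genes and limma 11819. On simulated counts with a log2 change of 1 in 198 of 15464 genes, for AZD5153 against DMSO at 24 hours, limma recovered 86.9% with 3.91% false calls. The simulation had no library that stood apart, and in the data limma called 10679 genes in this comparison. Its rates therefore need not hold for these data. Replicate libraries differed beyond sampling noise (chi-square per degree of freedom 2.12 to 25.6) and each counted as 1 replicate. Positions are from GENCODE 44 on GRCh38 by gene identifier (60463 of 60664 matched), and promoters from RefSeq.

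The members, lists, motifs and tests were chosen with earlier results of these data known. All members are named. From each other list the 2 largest increases and the 2 largest decreases called over both times are named, with the 3 genes most like each member, overlapping genes and head-to-head neighbours within 1 kb. 1 gene that this rule names is not reported here. NAMPT, HIC1 and the markers at or near 0 were named outside that rule.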

Additional observations from a re-analysis of the deposited data

Results flagged for a closer look

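The AZD5153 effect on SIRT5 differed between the times, by -0.50 on the log2 scale for 48 minus 24 hours (SE 0.15, limma adjusted p of 0.024), which is why it is listed here. Such calls were common, with 10.1% of all tested genes called lower and 14.4% called higher for this difference. SIRT5 was lower with AZD5153 in 3 of 3 libraries at each time. The call was absent when DMSO 48-hour replicate 3 or AZD5153 48-hour replicate 1 was left out (-0.47 and -0.42). It was also absent with scaling to 7 stably expressed genes (-0.43).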

How the results depend on the processing

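SIRT1, SIRT2, SIRT3, SIRT5 and SIRT7 kept their direction and their call at 24 and at 48 hours in all 24 alternatives, and SIRT4 in 23, the exception being a minimum mean of 100, which its mean of 87.2 normalized counts did not reach. The share of all tested genes that kept their calls in this way was not computed. Of the refitted values of single members, 963 kept direction and side of the threshold, 10 gained a call, 3 lost one and 12 changed sign, none of the last a called value. Deviations of same-number libraries from their group means had correlations from -0.151 to 0.036 in 18 pairs. Different-number pairs were not compared, so whether the replicate numbers pair the libraries was not settled. With a replicate block, 5 members were called higher and 1 lower at each time and 1 lower for the difference between times, as without it. Members called higher were 4 at 24 hours, at 48 hours and over both times with a minimum mean of 100 (without SIRT4), and 6 with quantile normalization at 24 hours and over both times (with SIRT6, at 0.24 over both times, limma adjusted p of 0.022) and at 24 hours without DMSO 24-hour replicate 3. Larger relative moves were those of the difference between times called lower (0 with 7 stable genes, 0 to 2 over the fits that left out 1 library), the DMSO time comparison called higher (3 with equal totals, from 2 to 4 over the fits that left out 1 library) and the AZD5153 time comparison, where the fit on only the groups compared called 1 higher (SIRT2, 0.14) and 1 lower (SIRT6, -0.26), and the fits that left out 1 library called 0 to 1 lower.

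Sign changes were those of SIRT6 at 48 hours (0.044 with quantile normalization) and over both times (-0.050 with equal totals, and -0.0028 to 0.17 over the fits that left out 1 library), and of SIRT7 between times in AZD5153 (0.064 with 7 stable genes, and -0.080 to 0.011 over the fits that left out 1 library, above 0 without AZD5153 24-hour replicate 1 or 2 or AZD5153 48-hour replicate 2). Over the fits that left out 1 library, the DMSO time values ran from -0.035 to 0.32 for SIRT6 and from -0.035 to 0.23 for SIRT7, and the differences between times from -0.22 to 0.0079 for SIRT3, from -0.25 to 0.015 for SIRT7 and from -0.55 to 0.011 for SIRT4, each with its change of sign without DMSO 24-hour replicate 1, or replicate 2 for SIRT4. The causes were not tested. Depth limits SIRT4 most, which had 17 or more reads per library.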
